A study of Mus musculus with 8 samples.

Results

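The glucocorticoid receptor gene *Nr3c1*, 5 of its target genes (*Fkbp5*, *Tsc22d3*, *Zbtb16*, *Dusp1* and *Sgk1*) and *Hsd11b1*, whose enzyme makes the active hormone, were followed in lung RNA-seq of mice with endotoxin shock. These 7 genes were taken as a list of symbols and matched through their Ensembl identifiers to 7 of the 55416 genes in the count tables. All 7 were among the 18560 genes that passed edgeR's filter on low counts, so none was lost. The study asked whether YW3-56, an inhibitor of protein arginine deiminases, changes the response of the lung to lipopolysaccharide (LPS).

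The animals were female C57BL/6J mice of 6 to 8 weeks, and lungs were taken 24 h after LPS or saline. The control group (mice 1, 2 and 4) received DMSO, the solvent of the inhibitor, in a tail vein and 0.5 h later saline in the peritoneal cavity. The LPS group (mice 1, 6 and 7) received LPS at 35 mg/kg in the peritoneal cavity, and no DMSO injection is described for it. The dual-treatment group (mice 2 and 5) received YW3-56 at 10 mg/kg in DMSO and 0.5 h later the same dose of LPS. A group given YW3-56 without LPS was not analysed here, and no agonist or antagonist of the receptor was given. Sequencing gave control mice 1, 2 and 4 counts of 19061949, 19796242 and 20527836 over all genes, LPS mice 1, 6 and 7 counts of 20818501, 19379911 and 19279724, and dual-treated mice 2 and 5 counts of 19875939 and 20908608.

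Glucocorticoids are steroid hormones of the adrenal gland that rise in blood during endotoxemia. They bind the glucocorticoid receptor, which is held in the cytoplasm by a complex of heat shock proteins and immunophilins, enters the nucleus after binding, activates genes at palindromic response elements and represses many inflammatory genes. In lung these hormones mature the surfactant system, raise sodium uptake by the epithelium and limit inflammation, and several of their targets are also induced by inflammatory signals without the hormone.

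The labelled tissue carried its defining transcripts. *Sftpc* of alveolar type 2 cells lay between 8322 and 24540 CPM (TMM-normalized counts on the scale of edgeR's cpm function) in the 8 mice, and the type 1 marker *Ager* between 979 and 2432 CPM. Each of the 5 type 2, 5 type 1, 3 club cell and 5 endothelial markers was above 0 counts in every library. LPS mice 6 and 7 stood apart. Summed over 6 genes of squamous epithelium, of which *Krt13* was the most abundant, they held 665 and 1949 CPM, against 1.13 CPM in LPS mouse 1 and at most 6.12 CPM in the other mice. Summed over 6 genes of skeletal muscle, of which *Acta1* was the most abundant, they held 363 and 1000 CPM, against 15.9 CPM in LPS mouse 1 and at most 18.0 CPM in the other mice. In LPS mouse 1, 3 of the 6 squamous genes and 1 of the 6 muscle genes had 0 counts. The part of this tissue in the results was not tested. Fold changes of the 7 genes in comparisons with the LPS group, and most of those of other listed genes, are given with and without these 2 libraries. Values of cell type markers and medians of lists are given with all LPS mice. Without LPS mice 6 and 7 the LPS group is mouse 1 alone. The spread behind those p-values then comes from the control and dual-treatment groups only, and they do not measure variation between LPS mice. The same holds for the dual-treatment group when 1 of its 2 mice is left out.

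Scaling also matters in these libraries. In mouse order, the TMM factors of the control libraries were 1.073, 1.077 and 1.06, those of the LPS libraries 0.810, 0.894 and 0.930, and those of the dual-treatment libraries 1.11 and 1.09. With library size alone, the median log2 fold change of all tested genes moved from -0.01 to -0.29 for LPS against control and from 0.06 to 0.38 for the dual treatment against LPS. The share of higher genes among all called genes moved from 49% to 35.6% and from 53.6% to 71% in these comparisons. Small changes between the LPS group and the others therefore depend on the scaling, and the members for which library size alone changed a call are named below.

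LPS changed most of the 7 genes, as it changed most genes of the lung. At an adjusted p-value under 0.05 in edgeR's quasi-likelihood test, 6 of the 7 were called between LPS and control, where 66.5% of all tested genes were called in either direction. Of these, *Fkbp5*, *Tsc22d3*, *Zbtb16*, *Dusp1* and *Sgk1* were higher (5 of 7, with 32.6% of all tested genes higher), and *Hsd11b1* was lower (1 of 7, with 33.9% lower). Between the dual-treatment and control groups 2 of the 7 were called, *Fkbp5* higher and *Nr3c1* lower, where 16.1% of all tested genes were called, 9.13% higher and 7.02% lower. Between the dual-treatment and LPS groups 4 of the 7 were called, where 59.1% of all tested genes were called. *Zbtb16*, *Dusp1* and *Sgk1* were lower (3 of 7, with 27.4% lower), and *Hsd11b1* was higher (1 of 7, with 31.7% higher). Without LPS mice 6 and 7 the log2 fold changes of all 7 kept their sign in both comparisons with the LPS group. With LPS, *Tsc22d3* then shrank from 0.66 to 0.39 and *Nr3c1* from -0.16 to -0.06. For the dual treatment against LPS, *Tsc22d3* shrank from -0.55 to -0.28. The comparisons share groups, so they are not independent of one another.

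**Figure D1:**
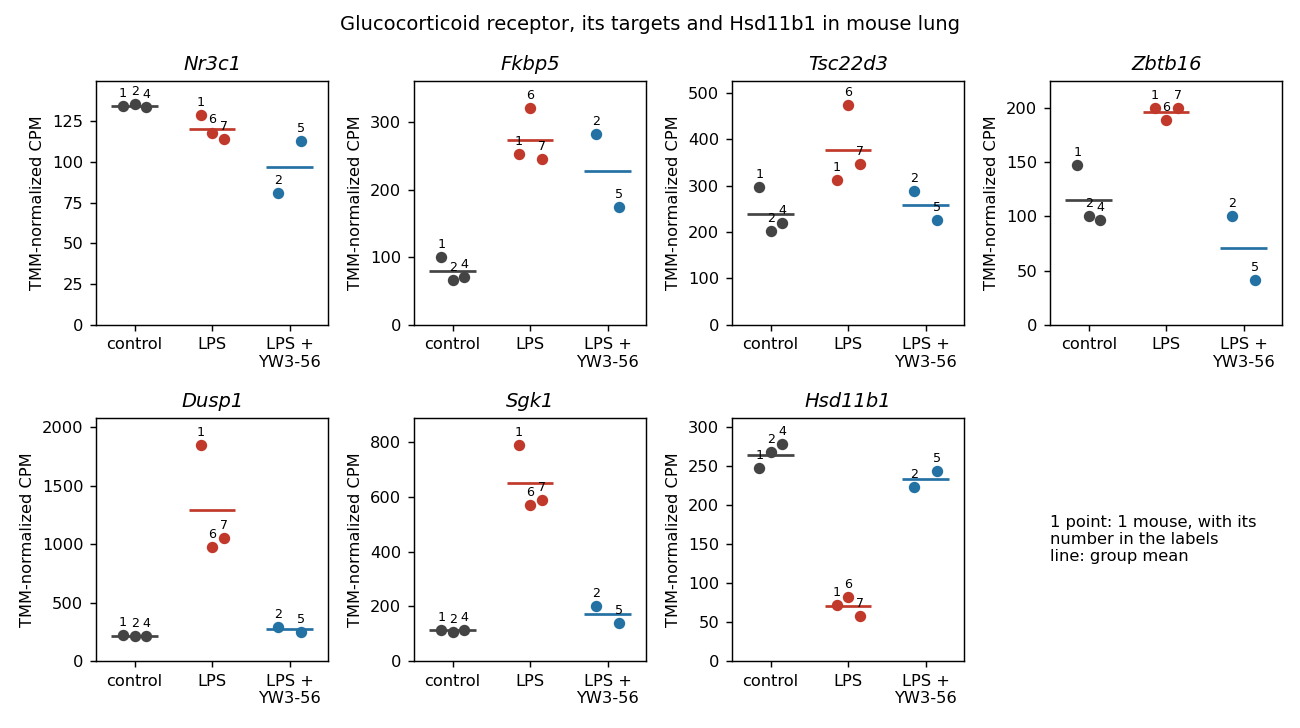
TMM-normalized CPM (vertical axes, from 0) of the 7 genes in each mouse of the control, LPS and dual-treatment (LPS + YW3-56) groups, with the mouse number beside each point and a line at each group mean. *Dusp1*, *Sgk1* and *Hsd11b1* in dual-treated mice lay between the LPS and control mice, and *Fkbp5* at 282 and 174 CPM in dual-treated mice overlapped the LPS mice.

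*Nr3c1*, on chromosome 18 (GRCm39 chr18:39543598-39652474, minus strand), encodes the receptor itself. Its level was 134, 136 and 134 CPM in control mice 1, 2 and 4. It was 129, 118 and 114 CPM in LPS mice 1, 6 and 7, and 80.9 and 113 CPM in dual-treated mice 2 and 5. Every LPS mouse lay slightly under every control mouse, and dual-treated mouse 2 was the lowest of the 8. With LPS the log2 fold change was -0.16 ± 0.12 (SE), which edgeR's test did not call (adjusted p = 0.268), and without LPS mice 6 and 7 it was -0.06 (adjusted p = 0.798). With library size alone it was -0.45 and was called (edgeR adjusted p = 0.00623).

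In the dual-treatment group *Nr3c1* differed from control by -0.47 ± 0.14 on the log2 scale (edgeR adjusted p = 0.047). The call was lost in 10 of 18 alternatives. It was lost with library size alone at -0.44 (edgeR adjusted p = 0.0501), in a fit of only these 2 groups at -0.46 (0.0537) and without LPS mice 6 and 7 at -0.47 (0.055). Without dual-treated mouse 2 the value was -0.28 (edgeR adjusted p = 0.211), without mouse 5 it was -0.76 (0.00312), and without control mouse 1, 2 or 4, or LPS mouse 6, it lay between -0.51 and -0.47 with edgeR adjusted p-values from 0.0607 to 0.124. Over all alternatives the edgeR or DESeq2 adjusted p ran from 0.00312 to 0.211. Against the LPS group the value was -0.31 ± 0.14 (edgeR adjusted p = 0.0788), and -0.42 without LPS mice 6 and 7 (edgeR adjusted p = 0.0986). It was called with the scaling of DESeq2 at -0.37 (edgeR adjusted p = 0.0427) and by DESeq2 at -0.36 (DESeq2 adjusted p = 0.0439). It was -0.59 without dual-treated mouse 5, and it turned to 0.02 with library size alone.

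The 2 dual-treated mice also differed in marker genes. Summed over 4 adipocyte genes, of which *Cfd* was the most abundant, mouse 2 held 435 CPM and mouse 5 held 42.9 CPM, and control mice 1, 2 and 4 held 72.8, 348 and 88.4 CPM. Summed over 4 B cell genes, of which *Cd79b* was the most abundant, dual-treated mice 2 and 5 held 70.4 and 24.7 CPM. None of these 8 genes was at 0 in any library, and their part in the results was not tested. Both dual-treated mice were low in red cell transcripts. Summed over 5 erythroid genes, of which *Hbb-bs* was the most abundant, they held 425.5 and 381 CPM, against 1734, 3908 and 2785 CPM in the control mice and 3284, 1884 and 1468 CPM in the LPS mice, and 5 of 5 were called lower than control (7.02% of all tested genes) and lower than LPS (27.4%). Of 4 heart muscle genes, of which *Myh6* was the most abundant, 3 were called lower than control (7.02% of all tested genes), with sums of 143 and 149 CPM against 242, 774 and 434 CPM. None of these genes was at 0, and their part in the results was not tested. In whole lung, fewer cells of a type and less RNA per cell cannot be told apart.

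*Fkbp5* (GRCm39 chr17:28618058-28737521, minus strand) encodes FKBP51, an immunophilin that joins the receptor complex, lowers its affinity for hormone and is itself induced by the receptor. It measured 99.7, 66.5 and 70.4 CPM in control mice 1, 2 and 4. In LPS mice 1, 6 and 7 it measured 253, 321 and 245 CPM, and in dual-treated mice 2 and 5 it measured 282 and 174 CPM. All 5 mice given LPS, with or without YW3-56, lay above all control mice, and the dual-treated mice overlapped the LPS mice. The rise with LPS was 1.79 ± 0.22 on the log2 scale (edgeR adjusted p = 6.98e-05), and 1.69 without LPS mice 6 and 7 (edgeR adjusted p = 0.00175).

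In the dual-treatment group *Fkbp5* was still 1.53 ± 0.23 above control on the log2 scale (edgeR adjusted p = 0.00263), which stayed called in all 18 alternatives, with values from 1.11 to 1.81. Against the LPS group it differed by -0.26 ± 0.24 (edgeR adjusted p = 0.363) and by -0.16 without LPS mice 6 and 7 (0.701), a value that turned to 0.06 with library size alone and to 0.02 without dual-treated mouse 5, and grew to -0.68 without dual-treated mouse 2 (edgeR adjusted p = 0.052). Neutrophil markers were also high in both groups given LPS. Summed over 7 neutrophil genes, of which *S100a9* was the most abundant and none at 0, the control mice held 215, 118 and 125 CPM, the LPS mice 2125, 2948 and 1843 CPM, and the dual-treated mice 1715 and 2387 CPM. Of these 7 markers, 7 were called higher with LPS (32.6% of all tested genes) and 6 in the dual-treatment group (9.13%). Against LPS 4 were called higher and 1 lower in the dual-treatment group, where 31.7% and 27.4% of all tested genes were. Dual-treated mouse 5 had a higher sum than mouse 2 but a lower level of *Fkbp5*. The part of these markers in the level of *Fkbp5* was not tested.

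*Tsc22d3* (GRCm39 chrX:139440091-139501408, minus strand) encodes GILZ, a leucine zipper protein that mediates anti-inflammatory effects of glucocorticoids. Its level was 297, 202 and 220 CPM in control mice 1, 2 and 4. The LPS mice 1, 6 and 7 had 312, 474 and 348 CPM, and the dual-treated mice 2 and 5 had 289.5 and 226 CPM. LPS mouse 1 lay close to control mouse 1, LPS mouse 6 was the highest, and the dual-treated mice lay within the range of the control mice.

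The rise of *Tsc22d3* with LPS was 0.66 ± 0.20 on the log2 scale (edgeR adjusted p = 0.0143). It was no longer called without LPS mice 6 and 7 at 0.39 (edgeR adjusted p = 0.189), without LPS mouse 6 at 0.47 (0.0536), without control mouse 2 at 0.54 (0.0604), without control mouse 4 at 0.60 (0.061) or with library size alone at 0.38 (0.135). The dual-treatment group differed from control by 0.10 ± 0.22 (edgeR adjusted p = 0.797), which turned to -0.01 without control mouse 2 and -0.12 without dual-treated mouse 2, and from the LPS group by -0.55 ± 0.22 (edgeR adjusted p = 0.0556). The latter shrank to -0.28 without LPS mice 6 and 7 (edgeR adjusted p = 0.366) and to -0.23 with library size alone (0.411). It was called without LPS mouse 1 at -0.68 (edgeR adjusted p = 0.0281), without control mouse 1 at -0.55 (0.0428) and with the scaling of DESeq2 at -0.61 (0.0403). It was also called with no filter on low counts at -0.53 (edgeR adjusted p = 0.0147) and by DESeq2 at -0.60 (DESeq2 adjusted p = 0.0154). Over all alternatives its adjusted p ran from 0.0147 to 0.411.

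*Zbtb16* (GRCm39 chr9:48563141-48748664, minus strand) encodes PLZF, a zinc finger transcription factor with a strong response to glucocorticoids in many cell types. It was at 147, 101 and 97.0 CPM in control mice 1, 2 and 4. It was at 200, 189 and 200 CPM in LPS mice 1, 6 and 7, and at 101 and 41.6 CPM in dual-treated mice 2 and 5. The 3 LPS mice lay close together above all others, and dual-treated mouse 5 was the lowest of the 8.

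The fall of *Zbtb16* from the LPS to the dual-treatment group was the firmer of its changes. The log2 fold change was -1.47 ± 0.33 (edgeR adjusted p = 0.00389), -1.50 without LPS mice 6 and 7 (edgeR adjusted p = 0.0266), and between -2.26 and -0.99 over the 18 alternatives, with the call kept in each and the largest fall without dual-treated mouse 2. With LPS against control it was 0.77 ± 0.28 (edgeR adjusted p = 0.0329). That call was lost when control mouse 2 or 4 or any LPS mouse was left out, at values from 0.66 to 0.81 with edgeR adjusted p-values from 0.0567 to 0.111, and without LPS mice 6 and 7 at 0.81 (0.138). It was also lost with library size alone at 0.49 (edgeR adjusted p = 0.153) and with upper quartile scaling at 0.68 (0.0547). The dual-treatment group differed from control by -0.69 ± 0.32 (edgeR adjusted p = 0.177), which was called with no filter on low counts at -0.695 (0.0222). Without dual-treated mouse 2 this was -1.50 and was called (edgeR adjusted p = 0.00685), with mouse 5 as the lone dual-treated mouse.

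*Dusp1* (GRCm39 chr17:26724564-26781102, minus strand) encodes a phosphatase that switches off p38 and JNK kinases and is induced by both glucocorticoids and inflammatory signals. It measured 229, 213 and 217 CPM in control mice 1, 2 and 4. It rose to 1847, 982 and 1055 CPM in LPS mice 1, 6 and 7, and was at 296 and 252 CPM in dual-treated mice 2 and 5. LPS mouse 1 was far above the other LPS mice, and both dual-treated mice lay just above the control mice and far under the LPS mice. The log2 fold change was 2.56 ± 0.23 with LPS (edgeR adjusted p = 1.14e-05), and 3.08 without LPS mice 6 and 7 (edgeR adjusted p = 8.98e-06).

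Against LPS, *Dusp1* in the dual-treatment group was lower by -2.24 ± 0.27 on the log2 scale (edgeR adjusted p = 0.000105), and by -2.76 without LPS mice 6 and 7 (edgeR adjusted p = 3.75e-05). Against control it differed by 0.32 ± 0.24 (edgeR adjusted p = 0.422). The gene shares 38 exon bases with *Ergic1* on the opposite strand, which lay between 52.8 and 69.5 CPM and was not called between LPS and control (edgeR adjusted p = 0.156). Since the strand setting of the counting is not stated, reads of the shared stretch cannot be told apart. The same limit holds for other members that share exon bases with opposite-strand non-coding genes, up to 1165 in *Nr3c1*, 524 in *Sgk1* and 255 in *Fkbp5*. That gene in *Fkbp5* reached at most 1.06 CPM, and those in *Nr3c1* and *Sgk1* are not in the count tables.

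*Sgk1* (GRCm39 chr10:21758083-21875802, plus strand) encodes a kinase that keeps the epithelial sodium channel at the cell surface. It had 115, 108 and 115 CPM in control mice 1, 2 and 4. In LPS mice 1, 6 and 7 it had 788, 569 and 589 CPM, and in dual-treated mice 2 and 5 it had 203 and 140 CPM. The groups did not overlap: the dual-treated mice lay above the control mice and under the LPS mice. With LPS the log2 fold change was 2.53 ± 0.18 (edgeR adjusted p = 2.69e-06), and 2.81 without LPS mice 6 and 7 (edgeR adjusted p = 2.96e-05).

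In the dual-treatment group *Sgk1* was lower than with LPS by -1.92 ± 0.20 on the log2 scale (edgeR adjusted p = 4.95e-05), or -2.20 without LPS mice 6 and 7 (edgeR adjusted p = 0.000185). It remained 0.61 ± 0.18 above control, at the edge of the threshold (edgeR adjusted p = 0.0517). That difference was called in 10 of 18 alternatives, among them DESeq2 at 0.59 (adjusted p = 0.0137), library size alone at 0.65 (edgeR adjusted p = 0.0246), without LPS mouse 1 at 0.61 (edgeR adjusted p = 0.0238), without LPS mouse 7 at 0.61 (0.047) and without dual-treated mouse 5 at 0.82 (0.0116). Without dual-treated mouse 2 it shrank to 0.29 and was not called (edgeR adjusted p = 0.411). Its adjusted p over all alternatives ran from 0.0069 to 0.411.

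*Hsd11b1* (GRCm39 chr1:192903918-192946489, minus strand) encodes the reductase that regenerates active corticosterone from its inert form inside cells. It was at 248, 269 and 278 CPM in control mice 1, 2 and 4. It fell to 72.0, 82.1 and 58.1 CPM in LPS mice 1, 6 and 7, and was at 223 and 243 CPM in dual-treated mice 2 and 5. The LPS mice were far under all others, and the dual-treated mice lay just under the control mice. The log2 fold change with LPS was -1.90 ± 0.13 (edgeR adjusted p = 2.89e-06), and -1.87 without LPS mice 6 and 7 (edgeR adjusted p = 5.74e-05).

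The dual-treatment group had more *Hsd11b1* than the LPS group by 1.72 ± 0.14 on the log2 scale (edgeR adjusted p = 1.54e-05), and by 1.69 without LPS mice 6 and 7 (edgeR adjusted p = 0.00016). Against control the value was -0.18 ± 0.14 (edgeR adjusted p = 0.442). Summed over 6 fibroblast genes, of which *Pdgfra* was the most abundant and none at 0, the control mice held 1087, 1164 and 1065 CPM, the LPS mice 856, 1013 and 938 CPM, and the dual-treated mice 1389 and 944.5 CPM. With LPS 3 of these 6 genes were called lower and 1 higher, where 33.9% of all tested genes were called lower and 32.6% higher. The higher gene, *Dcn*, was at 214 CPM in LPS mouse 1 and at 333 and 313 CPM in LPS mice 6 and 7. Of 5 alveolar type 2 genes, of which *Sftpc* was the most abundant, 4 were called lower with LPS (33.9% of all tested genes). Their sum was 35140, 29230 and 36810 CPM in the control mice, 25390, 17540 and 14100 CPM in the LPS mice and 17130 and 28130 CPM in the dual-treated mice. LPS mouse 1 thus lay nearer to the control mice than LPS mice 6 and 7. Of the 5 type 1 and of the 5 endothelial genes, 3 each were called lower with LPS (33.9% of all tested genes), at medians of -1.54 and -1.52. For the dual treatment against LPS 3 each were called higher (31.7% of all tested genes), at medians of 1.01 and 1.70. The type 1 marker *Ager* was called lower there, at -0.68. The part of these cell types in the level of *Hsd11b1* was not tested.

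**Figure D2:**
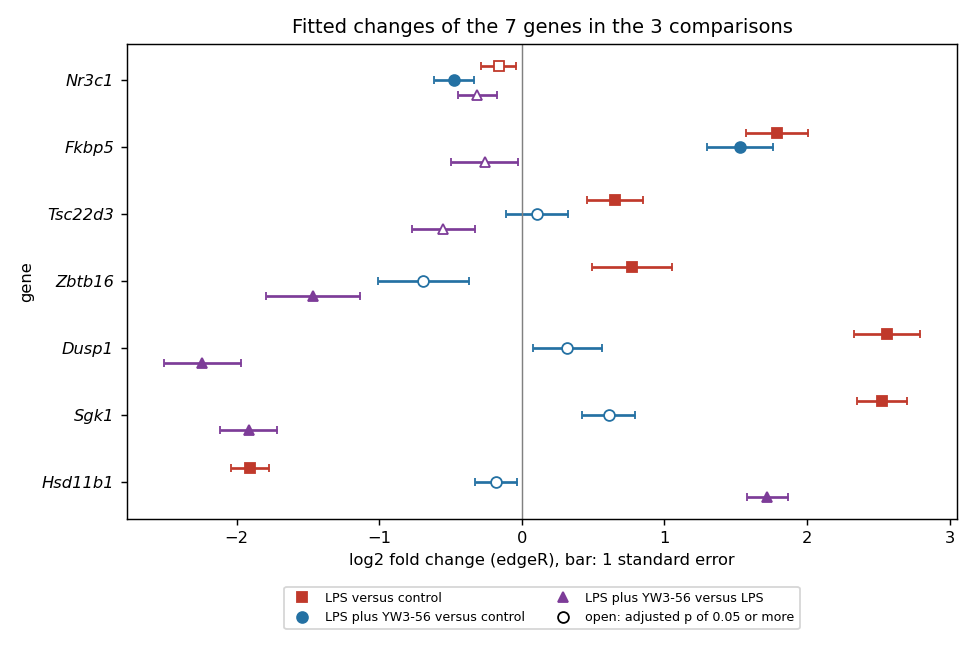
Fitted log2 fold changes (horizontal axis) of the 7 genes in the 3 comparisons, with bars of 1 standard error; filled symbols passed an adjusted p-value under 0.05 in edgeR's quasi-likelihood test. For *Dusp1*, *Sgk1*, *Zbtb16* and *Hsd11b1* the 2 comparisons with the LPS group are both filled and lie on opposite sides of 0, and *Fkbp5* lies at 1.79 with LPS and 1.53 with the dual treatment against control.

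Levels of different genes can be compared per kb of annotated exon. In the control group the order was *Dusp1* at a mean of 66.1 CPM per kb, *Hsd11b1* at 53.0, *Tsc22d3* at 38.7, *Sgk1* at 18.7, *Nr3c1* at 17.1, *Zbtb16* at 12.2 and *Fkbp5* at 7.13 CPM per kb. The ranges of neighbours in this order did not overlap. In the LPS group the order was *Dusp1* at 390 CPM per kb, *Sgk1* at 108, *Tsc22d3* at 61.0, *Fkbp5* at 24.7, *Zbtb16* at 20.9, *Nr3c1* at 15.3 and *Hsd11b1* at 14.2 CPM per kb. *Hsd11b1* thus went from the second place to the last, although its range, from 11.6 to 16.4 CPM per kb, overlapped that of *Nr3c1*, from 14.5 to 16.4. In the dual-treatment group the order was *Dusp1* at 82.4 CPM per kb, *Hsd11b1* at 46.7, *Tsc22d3* at 41.6, *Sgk1* at 28.6, *Fkbp5* at 20.6, *Nr3c1* at 12.3 and *Zbtb16* at 7.57 CPM per kb. There the ranges of *Hsd11b1* and *Tsc22d3*, of *Sgk1* and *Fkbp5*, and of *Nr3c1* and *Zbtb16* overlapped.

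Ratios within a library do not depend on how libraries are scaled. The ratio of *Fkbp5* to *Sgk1* per kb was 0.473, 0.334 and 0.332 in control mice 1, 2 and 4, 0.174, 0.307 and 0.226 in LPS mice 1, 6 and 7, and 0.752 and 0.674 in dual-treated mice 2 and 5. The dual-treated mice had the highest ratios of the 8 and the LPS mice the lowest. The ratio of *Fkbp5* to *Dusp1* per kb was 0.131, 0.0936 and 0.0975 in the control mice, 0.0411, 0.0983 and 0.0698 in the LPS mice, and 0.286 and 0.207 in the dual-treated mice, where the dual-treated mice were again highest but LPS mouse 6 lay among the control mice. The ratio of *Dusp1* to *Sgk1* per kb moved less, between 3.40 and 3.62 in the control mice, 3.12 and 4.24 in the LPS mice, and 2.635 and 3.25 in the dual-treated mice. Whether *Fkbp5* and the other targets differ in their response to YW3-56 was not tested beyond these ratios.

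Likeness over the 8 mice was measured by Pearson's r of log2 CPM among 12163 tested genes with a mean of at least 5 CPM, as a description of points that share 3 groups. *Nr3c1* was most like *Hc* (r = 0.979), *Fbxo21* (0.974) and *Isoc1* (0.969). *Fkbp5* was most like *Ifi207* (r = 0.997), *Ripk3* (0.994) and *Procr* (0.988), all of which were also high in both groups given LPS, such as *Ripk3* at means of 10.4, 43.1 and 37.9 CPM in the control, LPS and dual-treatment groups. *Tsc22d3* was most like *C920006O11Rik* (r = 0.969), *Msantd3* (0.955) and *Gm6136* (0.954). *Zbtb16* was most like *Klf15* (r = 0.974), itself a glucocorticoid target, *Mterf3* (0.963) and *Tgfbr3* (0.961). *Dusp1* was most like *Zc3hav1* (r = 0.999), *Zfp36* (0.998) and *Maff* (0.997), *Sgk1* most like *Vdr*, *Ogfr* and *Hif1a* (each r = 0.998), and *Hsd11b1* most like *Acsl5*, *Zscan22* and *Orai3* (each r = 0.998).

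The chaperones that hold the receptor in its hormone-binding form are considered next. With LPS 7 of 14 were called lower and 1 higher, where 33.9% of all tested genes were called lower and 32.6% higher, at a median log2 fold change of -0.33 against -0.01 over all tested genes. Without LPS mice 6 and 7, *Dnajb1* was at 0.53 in place of 0.24 and *Hspa8* at -0.38 in place of -0.60. *Fkbp4*, which encodes FKBP52, the immunophilin that takes the place of FKBP51 in the complex when hormone binds, had 246, 268 and 312 CPM in the control mice, 71.0, 67.7 and 67.5 CPM in the LPS mice and 104 and 168 CPM in the dual-treated mice. It was therefore high where *Fkbp5* was low, and no group overlapped another. Its log2 fold change was -2.001 ± 0.17 with LPS (edgeR adjusted p = 8.3e-06, or -1.95 and 0.00101 without LPS mice 6 and 7) and -1.02 ± 0.19 with the dual treatment (edgeR adjusted p = 0.00723) against control.

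The inducible heat shock genes *Hspa1a* and *Hspa1b* showed the largest falls of the chaperone list with LPS. *Hspa1a* had 22.4, 26.6 and 31.5 CPM in the control mice, 2.79, 3.58 and 3.85 CPM in the LPS mice and 26.1 and 23.8 CPM in the dual-treated mice. Both dual-treated values lay among the control values. These neighbouring genes are nearly identical, so their reads may be split between them. *Ptges3*, which encodes the cochaperone p23, was the only chaperone called higher with LPS, at 0.59 ± 0.09 on the log2 scale (edgeR adjusted p = 0.000413, or 0.74 and 0.000653 without LPS mice 6 and 7). In the dual-treatment group 0 of 14 were called higher than control by edgeR, 0 at an unadjusted p-value under 0.05 and 0 by DESeq2, where 9.13% of all tested genes were called higher, and 5 of 14 were called lower (7.02% of all tested genes), *Fkbp4*, *Dnaja1*, *Dnajb1*, *Hsp90aa1* and *Hsp90ab1*. Of these, *Hsp90aa1* and *Dnajb1* were not called without dual-treated mouse 2, at -0.66 (edgeR adjusted p = 0.0597) and -0.82 (0.0563). Against LPS 4 of 14 were called higher and 6 lower, where 31.7% and 27.4% of all tested genes were. With library size alone 8 were called higher and 2 lower, where 71% of all called genes were higher in place of 53.6%. The median of the list then moved from 0.06 to 0.39 and that of all tested genes from 0.06 to 0.38. The balance of this list thus moved with that of all tested genes.

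Of 13 coregulators, 3 were called higher with LPS and 3 lower, against 32.6% and 33.9% of all tested genes, at a median of 0.06. With library size alone 2 were called higher and 7 lower, where 35.6% of all called genes were higher in place of 49%. The median of the list then moved from 0.06 to -0.23 and that of all tested genes from -0.01 to -0.29. *Nrip1*, a corepressor of nuclear receptors, had 24.8, 21.9 and 23.1 CPM in the control mice, 86.1, 60.9 and 78.4 CPM in the LPS mice and 19.1 and 16.6 CPM in the dual-treated mice. The LPS mice were the high ones, and the dual-treated mice lay under all control mice. *Nrip1* changed by 1.69 ± 0.14 with LPS (edgeR adjusted p = 6.19e-06, or 1.89 and 3.57e-05 without LPS mice 6 and 7) and -2.08 ± 0.16 between the dual treatment and LPS (edgeR adjusted p = 1.16e-05, or -2.28 and 6.02e-05 without them).

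*Hdac2*, a deacetylase that the receptor recruits to inflammatory genes, went the other way. It had 69.5, 66.9 and 66.0 CPM in the control mice, 27.3, 31.0 and 24.1 CPM in the LPS mice and 48.0 and 56.9 CPM in the dual-treated mice, with no overlap between groups. On the log2 scale it changed by -1.30 ± 0.11 with LPS (edgeR adjusted p = 9.72e-06, or -1.30 and 0.000218 without LPS mice 6 and 7) and 0.93 ± 0.12 between the dual treatment and LPS (edgeR adjusted p = 0.000202, or 0.93 and 0.00149 without them). Against control 1 of 13 coregulators, *Smarca4*, was called in the dual-treatment group, at 0.40 (edgeR adjusted p = 0.022), and not when any control or dual-treated mouse was left out (edgeR adjusted p from 0.0518 to 0.103). None was called lower by edgeR, where 7.02% of all tested genes were, against 1 by DESeq2 and 6 at an unadjusted p-value under 0.05. *Ncor1*, *Crebbp* and *Hdac2* were called lower without LPS mice 6 and 7 (edgeR adjusted p = 0.033, 0.025 and 0.0417) and in a fit of only these 2 groups (0.0335, 0.0255 and 0.0415).

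Of 13 listed genes that handle steroids, 11 were tested, and *Serpina6* and *Cyp11b1* were at most at 1 count in any library. With LPS 3 were called higher and 6 lower, so 9 of 11 were called where 66.5% of all tested genes were. *Hsd11b2*, whose enzyme inactivates corticosterone, had 0.832, 1.13 and 2.07 CPM in the control mice, 20.5, 16.9 and 16.2 CPM in the LPS mice and 2.90 and 1.14 CPM in the dual-treated mice. The LPS mice were far above the rest, and the dual-treated mice overlapped the control mice. The log2 fold change was 3.73 ± 0.39 with LPS (edgeR adjusted p = 2.85e-05, or 3.93 and 0.00053 without LPS mice 6 and 7) and -3.14 ± 0.44 between the dual treatment and LPS (edgeR adjusted p = 0.000277, or -3.35 and 0.00233 without them).

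The 2 enzymes thus moved in opposite directions. The ratio of *Hsd11b1* to *Hsd11b2* per kb was 111, 88.7 and 50.0 in control mice 1, 2 and 4, 1.31, 1.80 and 1.33 in LPS mice 1, 6 and 7, and 28.6 and 79.4 in dual-treated mice 2 and 5. The LPS mice were the only ones under 2, and dual-treated mouse 5 lay among the control mice. *H6pd*, which supplies the cofactor of the reductase, went up rather than down with LPS, at 315, 309.5 and 290 CPM in the control mice, 493, 456 and 453 CPM in the LPS mice and 266 and 198 CPM in the dual-treated mice. Its log2 fold change was 0.62 ± 0.12 with LPS (edgeR adjusted p = 0.00161, or 0.70 and 0.00886 without LPS mice 6 and 7).

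*Abcb1a*, an efflux pump that carries glucocorticoids out of cells, had 64.3, 67.4 and 69.1 CPM in the control mice, 16.4, 11.1 and 11.6 CPM in the LPS mice and 45.3 and 60.8 CPM in the dual-treated mice. The LPS mice were the low ones, and both dual-treated mice lay under the control mice. Its log2 fold change was -2.36 ± 0.17 with LPS (edgeR adjusted p = 3.14e-06), and -2.02 without LPS mice 6 and 7. Of 5 endothelial markers 3 were also called lower with LPS (33.9% of all tested genes), *Kdr* at -2.60, *Tie1* at -2.97 and *Pecam1* at -1.52. The other 2 were not called. Of these, *Cdh5*, the most abundant of the 5, had 590, 659 and 737 CPM in the control mice and 938, 657 and 642 CPM in the LPS mice. The part of the endothelial markers in the level of *Abcb1a* was not tested. The mineralocorticoid receptor gene *Nr3c2*, whose protein also binds corticosterone, was not called with LPS at -0.45 ± 0.25 (edgeR adjusted p = 0.14), nor without LPS mice 6 and 7 at -0.80 (0.0752), but was without LPS mouse 7 at -0.68 (0.0406) and with library size alone at -0.72 (0.0399).

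A wider list held targets listed as known mainly from the hormone response, a name that does not exclude induction by inflammatory signals. Of 15 genes, 11 were called higher and 3 lower with LPS, against 32.6% and 33.9% of all tested genes, at a median log2 fold change of 1.16. The largest rise was that of *Lcn2*, at 6.57 with LPS (6.69 without LPS mice 6 and 7) and 4.38 with the dual treatment against control. Whether the hormone or inflammatory signals raised *Lcn2* was not tested. Without LPS mice 6 and 7, *Angptl4* was at 0.84 in place of 1.35 and *Klf15* at 0.41 in place of 0.40. In the dual-treatment group 5 were called higher and 2 lower than control (9.13% and 7.02% of all tested genes), at a median of 0.50 against 0.00 over all tested genes. Against LPS 3 were called higher and 10 lower, where 31.7% and 27.4% of all tested genes were, at a median of -0.88 against 0.06 over all tested genes. Without LPS mice 6 and 7, *Pdk4* was at -2.14 in place of -2.60 against LPS. With library size alone the calls with LPS were 9 higher and 4 lower, as *Klf15* and *Fam107a* were no longer called and *Pik3r1* was called lower. Of all called genes 35.6% were then higher in place of 49%. Without control mouse 2 or 4, the genes of this list called against control were 3 and 4 in place of 7. All called genes went from 2997 of 18560 tested to 1553 of 18419 and 1710 of 18423 in these fits. Without dual-treated mouse 2, *Per1* was at 0.70 in place of 1.07 against control.

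*Per1*, a clock gene that glucocorticoids induce within hours, had 112, 66.2 and 62.5 CPM in the control mice, 1132, 833 and 955 CPM in the LPS mice and 203 and 133 CPM in the dual-treated mice. *Ddit4*, an inhibitor of mTOR signaling, had 34.2, 34.4 and 33.5 CPM in the control mice, 423, 433 and 341 CPM in the LPS mice and 88.0 and 59.0 CPM in the dual-treated mice. In both genes the dual-treated mice lay above the control mice and far under the LPS mice. For *Ddit4* the log2 fold change was 3.55 ± 0.17 with LPS (edgeR adjusted p = 5.66e-07, or 3.64 and 1.54e-05 without LPS mice 6 and 7) and 1.11 ± 0.17 with the dual treatment (edgeR adjusted p = 0.00269) against control.

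*Klf9*, a transcription factor downstream of the receptor, followed the pattern of *Zbtb16*. Its values were 208, 169 and 186 CPM in the control mice, 430, 428 and 439 CPM in the LPS mice and 172 and 131.5 CPM in the dual-treated mice. The LPS mice lay together above all others, and dual-treated mouse 5 was again the lowest. Between the dual treatment and LPS the log2 fold change was -1.51 ± 0.15 (edgeR adjusted p = 3.44e-05, or -1.51 and 0.000598 without LPS mice 6 and 7). *Scnn1a*, the alpha subunit of the epithelial sodium channel that SGK1 regulates, had 631, 530 and 526.5 CPM in the control mice, 1074, 983 and 1013 CPM in the LPS mice and 576 and 538 CPM in the dual-treated mice. The dual-treated mice lay within the control range, and the log2 fold change with LPS was 0.86 ± 0.11 (edgeR adjusted p = 0.000123), or 0.94 without LPS mice 6 and 7. Of 3 club cell genes 2 were called higher and 1 lower with LPS (32.6% and 33.9% of all tested genes). Against LPS 2 were called lower in the dual-treatment group (27.4% of all tested genes). Their part in the level of *Scnn1a* was not tested.

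*Cd163*, a hemoglobin scavenger receptor that glucocorticoids induce in macrophages, had 9.003, 7.98 and 6.12 CPM in the control mice, 2.91, 4.62 and 5.25 CPM in the LPS mice and 39.1 and 21.5 CPM in the dual-treated mice. The dual-treated mice were the highest of the 8, at 1.98 ± 0.30 above control (edgeR adjusted p = 0.00253) and 2.83 ± 0.31 above LPS on the log2 scale (edgeR adjusted p = 6.58e-05, or 3.37 and 0.000916 without LPS mice 6 and 7). Summed over 6 macrophage genes, of which *C1qb* was the most abundant and none at 0, the control mice held 216, 138.5 and 192 CPM, the LPS mice 237, 236.5 and 166 CPM, and the dual-treated mice 665 and 616.5 CPM. Of these 6 markers 5 were called higher in the dual-treatment group than in the control (9.13% of all tested genes) and LPS groups (31.7%), and their part in the level of *Cd163* was not tested. *Mertk*, a receptor for the uptake of dying cells, had 75.0, 77.7 and 74.5 CPM in the control mice, 25.4, 23.7 and 19.8 CPM in the LPS mice and 56.6 and 53.3 CPM in the dual-treated mice, so it fell with LPS and lay between the groups with the dual treatment.

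Of the targets that inflammatory signals also induce, all 14 were called higher with LPS (32.6% of all tested genes), at a median log2 fold change of 3.18. The list was made of such genes with earlier results of these data known, so its counts are a description and no test. All 14 were called lower in the dual-treatment group than with LPS (27.4% of all tested genes), at a median of -1.99. Each kept its direction in both comparisons without LPS mice 6 and 7. Against control 7 of 14 were called higher in the dual-treatment group (9.13% of all tested genes), at a median of 0.98, with *Mt1* no longer called without dual-treated mouse 2 at 0.94 (edgeR adjusted p = 0.0535). The highest of these against control was *Il1r2*, a decoy receptor for interleukin-1, with 1.66, 1.69 and 1.66 CPM in the control mice, 171, 173 and 126 CPM in the LPS mice and 65.3 and 39.8 CPM in the dual-treated mice. It stayed 4.97 ± 0.25 above control on the log2 scale (edgeR adjusted p = 9.39e-06). *Nfkbia*, which encodes the inhibitor of NF-kB, had 177, 161 and 163 CPM in the control mice, 1743, 1382 and 1263 CPM in the LPS mice and 463 and 300 CPM in the dual-treated mice.

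Inflammatory genes that the receptor is known to repress were high at the same time as the targets it activates. They too were listed with earlier results of these data known, so their counts are a description and no test of the receptor. With LPS 11 of 12 were called higher (32.6% of all tested genes), at a median of 3.16. Of these, *Tnf* at 0.89 was not called with library size alone, at 0.58 (edgeR adjusted p = 0.0904). Nor was it called without control mouse 2 or 4 or LPS mouse 1, at 0.91, 0.80 and 0.40 (edgeR adjusted p = 0.0619, 0.0833 and 0.0873). Against LPS 9 of 12 were called lower in the dual-treatment group (27.4% of all tested genes), at a median of -1.62, and *Tnf* moved from -0.64 to -1.32 without LPS mice 6 and 7. Above control 5 of 12 were called (9.13% of all tested genes). Of these 5, *Cxcl1* was not called without control mouse 1, 2 or 4 or without dual-treated mouse 2 (edgeR adjusted p from 0.0665 to 0.213). *Il6* had 1.17, 1.27 and 0.644 CPM in the control mice, 200, 33.4 and 85.7 CPM in the LPS mice and 2.59 and 0.659 CPM in the dual-treated mice. The dual-treated mice lay close to the control mice, and the LPS mice differed among themselves, with mouse 1 the highest, as it was for *Dusp1*. *Ccl2* was not called between the dual treatment and LPS, at -0.80 ± 0.46 (edgeR adjusted p = 0.157), but was without LPS mice 6 and 7 at -1.64 (edgeR adjusted p = 0.00352), with 57.8 and 35.9 CPM in the dual-treated mice against 145, 50.4 and 49.2 CPM in the LPS mice.

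**Figure D3:**
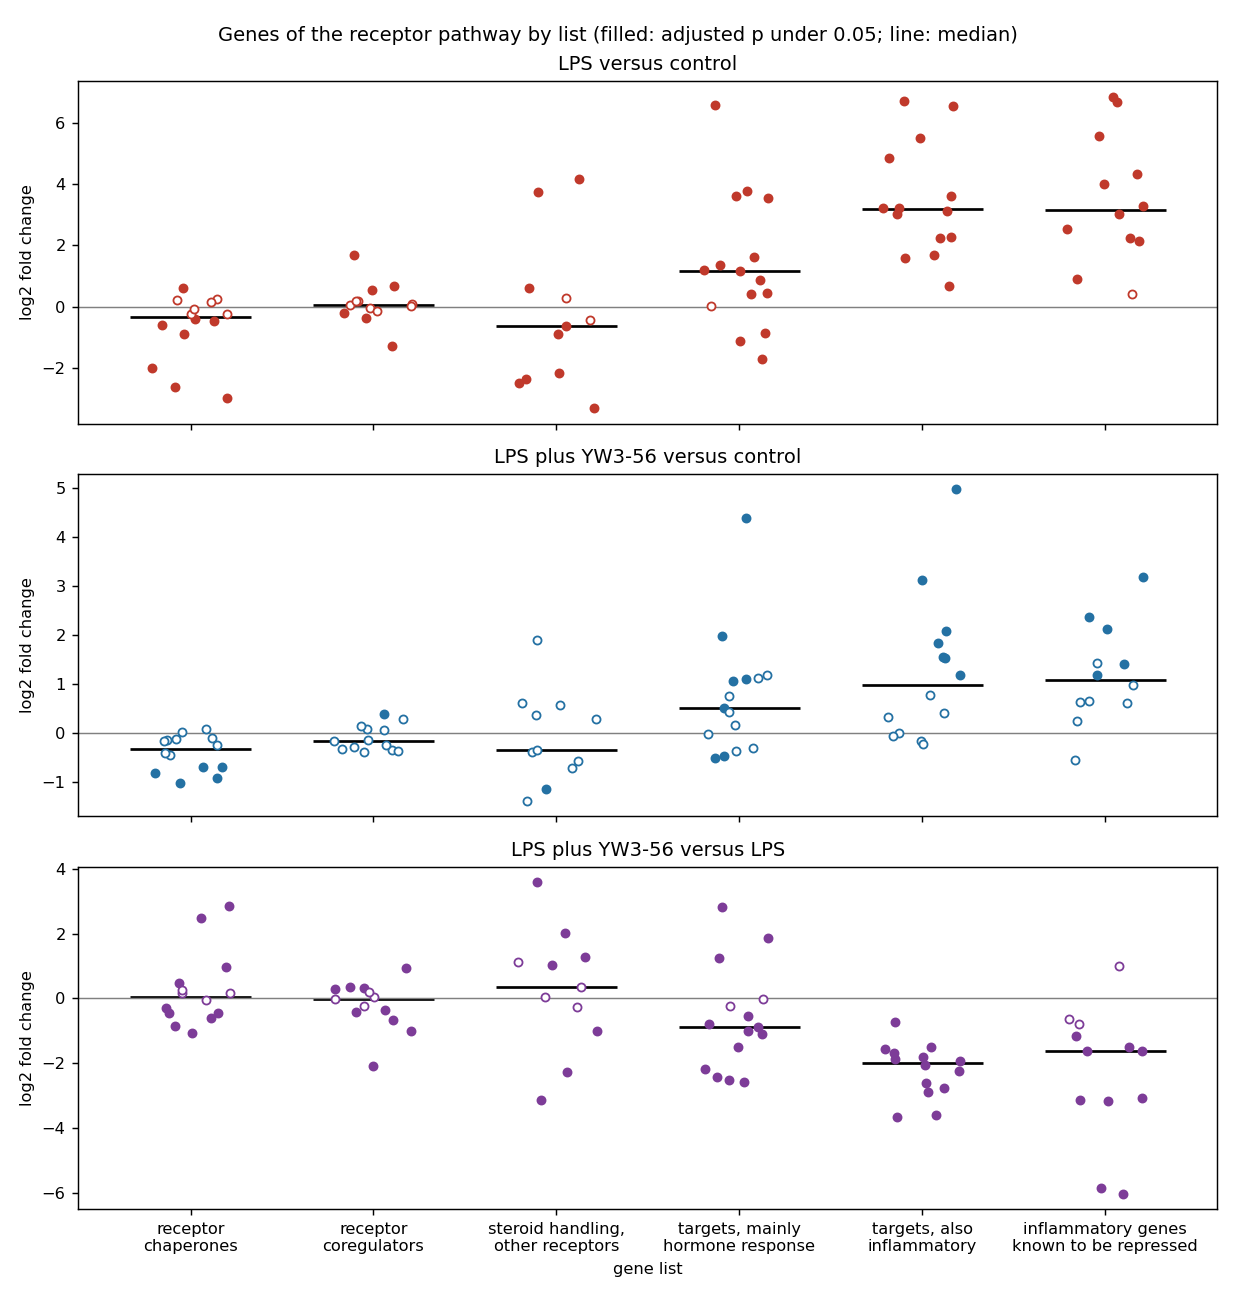
Log2 fold changes (vertical axes) of the tested genes of 6 lists (horizontal axis) in the 3 comparisons, 1 point per gene, filled where the adjusted p-value was under 0.05, with a line at the median of each list. The lists of activated targets and of repressed inflammatory genes lie mostly above 0 with LPS and mostly under 0 for the dual treatment against LPS, at medians of 3.18 and -1.99 for the targets that inflammatory signals also induce.

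Sequence around the starts of the targets was searched for the letters of the receptor's response element. The shorter form was GNACANNNTGTNC and the longer form AGNACANNNTGTNCT, which contains the shorter one, and both read the same on either strand. In windows of 10001 bases centred on the annotated start (GRCm39, canonical transcripts of 21765 protein-coding genes), 15.5% of all windows held the shorter form and 2.45% the longer form. Among the 6 members other than the receptor, *Dusp1*, *Fkbp5* and *Sgk1* held the shorter form and *Sgk1* also the longer. Of the 15 targets known mainly from the hormone response 6 held the shorter form and 2 the longer, of the 14 that inflammatory signals also induce 8 and 2, and of the 12 inflammatory genes that the receptor represses none held either. A match is a description of letters, since no binding was measured here.

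The single match of each of 3 members and 1 match of each of 4 other named targets are shown 5′ to 3′ on the strand of the gene, with the 13 letters of the shorter form in capitals and 20 bases on each side. The *Sgk1* match lies 958 bases before the canonical start, in an intron of a longer transcript (chr10:21869581-21869633). The *Fkbp5* match lies 1219 bases after its start, in an intron (chr17:28703907-28703959), and the *Dusp1* match 974 bases before its start, in an intron of a longer transcript (chr17:26728441-26728493). *Per1* holds 2 matches, and that shown lies 981 bases after its start, in an intron (chr11:68990223-68990275), the *Scnn1a* match 791 bases before its start (chr6:125297486-125297538), 1 of 2 *Lcn2* matches 486 bases before its start (chr2:32278269-32278321) and 1 of 2 *Mt2* matches 962 bases before its start (chr8:94898144-94898196), the last 3 outside the gene. The other *Per1* match lies 1359 bases before its start, and the other *Lcn2* and *Mt2* matches 4261 and 2194 bases after theirs. All coordinates are on GRCm39, with *Fkbp5*, *Dusp1* and *Lcn2* on the minus strand and the others on the plus strand.
Sgk1: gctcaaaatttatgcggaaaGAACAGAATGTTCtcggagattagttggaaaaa
Fkbp5: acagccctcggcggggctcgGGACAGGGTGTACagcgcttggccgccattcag
Dusp1: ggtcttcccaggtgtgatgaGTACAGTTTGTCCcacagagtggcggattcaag
Per1: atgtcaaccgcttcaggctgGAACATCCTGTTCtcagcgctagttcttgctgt
Scnn1a: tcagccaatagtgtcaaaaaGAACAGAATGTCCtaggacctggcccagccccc
Lcn2: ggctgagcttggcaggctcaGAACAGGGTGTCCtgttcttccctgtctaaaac
Mt2: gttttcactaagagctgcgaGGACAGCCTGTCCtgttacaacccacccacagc

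In the 300-base RefSeq promoters *Sgk1* was the only member with a match. Entries for 5 of the members were matched by symbol (*Dusp1*, *Fkbp5*, *Hsd11b1*, *Sgk1* and *Tsc22d3*), and 1 of these genes, *Sgk1*, held the shorter and the longer form in 1 of its 6 entries. The shorter form was held by 0.475% and the longer by 0.0639% of all 32851 promoters searched. The match in that entry is the *Sgk1* site already shown above on GRCm39, and no further site. The *Sgk1* promoter with the match (GRCm38.p6 chr10:21993640-21993939, plus strand) is shown because the gene is among the members most raised by LPS, with the shorter form in capitals.
Sgk1 promoter: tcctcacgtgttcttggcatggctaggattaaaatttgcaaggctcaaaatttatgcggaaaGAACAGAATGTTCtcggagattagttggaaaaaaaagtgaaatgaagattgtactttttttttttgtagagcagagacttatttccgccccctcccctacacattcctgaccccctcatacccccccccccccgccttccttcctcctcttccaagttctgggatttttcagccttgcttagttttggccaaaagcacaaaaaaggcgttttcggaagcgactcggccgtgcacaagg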

How the data were processed

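Lung RNA from 8 mice was sequenced. Per the study's methods the authors checked reads with FastQC, trimmed them with Trim Galore, aligned them to GRCm39 with HISAT2 2.2.1 and counted them per gene with featureCounts 2.0.1, and the deposited values are raw counts per gene. The annotation release, the strand setting and the handling of reads with several matches are not given in the sources used here.

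Counts were analysed with edgeR 4.0.16 in R 4.3.3: TMM scaling, filterByExpr by group, and 1 quasi-likelihood fit of all 8 libraries with 1 group factor. P-values were adjusted by the Benjamini-Hochberg method over the 18560 tested genes, and a gene was called at an adjusted p-value under 0.05. Standard errors came from the log2 fold change and its F statistic. Values per mouse are TMM-normalized CPM. Of 55416 identifiers 54749 matched GENCODE M39, which gave symbols, coordinates and exon lengths. The 667 others held 0.0533% of counts. The procedure was checked on simulated counts. Replicate libraries differed by more than counting noise.

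Named genes are the 7 members, genes of fixed lists (receptor chaperones, coregulators, steroid handling, 3 target lists and cell type markers), and the 3 genes most like each member. *Ergic1* was named after its values were seen, for its overlap. The members and lists were chosen with earlier results of these data known. Alternatives were DESeq2 1.42.0, 3 other scalings, 2 other filters, only the 2 compared groups, 2 other call rules, leaving out each mouse, and leaving out LPS mice 6 and 7. P-values measure the spread between mice in groups of 3, 3 and 2, or of the groups with more than 1 mouse where mice were left out. The motif search and the promoter table (RefSeq, GRCm38.p6) used sequence only.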

Additional observations from a re-analysis of the deposited data

How the results depend on the processing

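Of 378 log2 fold changes of the 7 genes under 18 alternatives, 325 kept direction and call, 27 lost the call, 21 gained it and 5 changed direction. Between the dual treatment and LPS, *Nr3c1* turned to 0.0155 with library size alone (edgeR adjusted p = 0.926), and *Fkbp5* to 0.0648 with library size alone (0.832) and 0.0192 without dual-treated mouse 5 (0.955). Between the dual treatment and control, *Tsc22d3* turned to -0.0068 without control mouse 2 (edgeR adjusted p = 0.994) and -0.1158 without dual-treated mouse 2 (0.87). Leaving out 1 mouse gave values up to 0.2864 for this *Tsc22d3* change and down to -0.6792 for the *Fkbp5* change between the dual treatment and LPS. The cause was not tested.

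Of 486 counts, 72 moved. For LPS against control, 5 members were called higher. This was 3 with library size only, without LPS mice 6 and 7, with fold change over 2 and unadjusted p under 0.05, and with adjusted p under 0.05 and fold change over 2. Leaving out 1 mouse gave 3 to 5. The members called lower were 1, and 2 with library size only. The 2 rules with a fold threshold each gave 3 receptor chaperones and 2 coregulators in place of 8 and 6.

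For the dual treatment against control, 2 members were called. This was 4 with no filter on low counts, 1 with either fold rule, and 1 to 3 leaving out 1 mouse. The members called higher were 1, and 2 with library size only, upper quartile, no filter, at least 10 counts in every library, only the 2 groups compared, without LPS mice 6 and 7, and DESeq2. Leaving out 1 mouse gave 1 to 2. The members called lower were 1, and 0 with library size only, only the 2 groups compared, without LPS mice 6 and 7 and either fold rule, and 2 with no filter. Leaving out 1 mouse gave 0 to 1.

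In the same comparison the chaperones called were 5, and 1 with either fold rule, and 3 to 6 leaving out 1 mouse. The coregulators called were 1, and 4 with only the 2 groups compared and without LPS mice 6 and 7, 2 with DESeq2, 0 with either fold rule, and 0 to 4 leaving out 1 mouse. The steroid handling genes called were 1, and 2 with no filter, DESeq2 and fold change with unadjusted p, and 0 to 2 leaving out 1 mouse. The repressed inflammatory genes called were 5, and 8 with no filter. The targets known mainly from the hormone were 7, and 4 with adjusted p and fold change, and 3 to 8 leaving out 1 mouse.

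For the dual treatment against LPS, 3 members were called lower, and 5 with the scaling of DESeq2 in edgeR and with DESeq2. Either fold rule gave 3 chaperones and 2 coregulators in place of 10 and 9.

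No paired analysis was made, since per the study's methods mice were assigned to groups at random and the labels give no pairing. Groups of 3, 3 and 2 mice leave some calls resting on single animals, whole lung mixes cell types, no YW3-56 group without LPS was analysed here, and neither hormone level nor receptor binding was measured in these data. Sequence matches are letters only.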
